A study of Mus musculus with 6 samples.

Results

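Integrins are the receptors with which cells hold on to the matrix around them, and laminins are the chains of the basement membrane on which epithelial cells sit. The 36 genes described here were chosen by name from the 61880 rows of the count table. They comprise 18 integrin α subunits, 8 integrin β subunits and 10 laminin chains, of which 5 are α, 3 are β and 2 are γ chains. Each gene was read in 2 ways, as the row that carries its symbol and as the sum of all rows of the same assembled locus, and all 36 genes passed the filter on low counts in both. Levels are in CPM, counts scaled to the size and composition of the library, and are locus sums unless a row is named.

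Every integrin is a heterodimer of an α and a β subunit, and every laminin is a trimer of an α, a β and a γ chain. In the mammary gland the ducts are lined by luminal cells and wrapped by basal, or myoepithelial, cells that rest on a laminin-rich basement membrane. Laminin receptors with the β1 or β4 chain anchor the epithelium to it, whereas leukocytes use integrins with the β2 or β7 chain to adhere to vessels and to other cells.

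RNA was sequenced from 6 samples of cells labelled as pooled mammary epithelial cells, prepared from the inguinal mammary glands of female FVB/NJ mice at puberty, 6 to 8 weeks of age. The 3 *fat-1* samples came from mice carrying a *Caenorhabditis elegans* n-3 desaturase transgene, which makes n-3 from n-6 fatty acids throughout the body, and the 3 WT samples came from wildtype mice. Both genotypes were kept for life on the same safflower oil diet, a modified AIN93G diet rich in n-6 fatty acids, so diet was not a variable. Each sample was a pool of mice and the glands were digested for many hours with collagenase, hyaluronidase, trypsin and dispase, and no sort for epithelial cells is described. The comparison asks whether lifelong endogenous n-3 fatty acids changed the transcripts of these adhesion genes. There are n = 3 samples per genotype throughout.

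The samples held 204539059 to 232148824 counts each. Luminal markers were present in every sample but differed widely, with sums of 768 to 3125 CPM for *fat-1* and 807 to 2575 CPM for WT over the 9 of 10 listed genes whose loci hold no other coding gene, and basal markers ran from 127 to 433 and from 120 to 359 CPM over 7 of 8. Fibroblast markers summed to 1568 to 6131 and 3370 to 5679 CPM over 7 of 7, and the 3 pan-leukocyte markers to 276 to 681 and 265 to 718 CPM. The isolates therefore held RNA of cells other than the labelled epithelium. In a bulk sample, fewer cells of a type and less RNA per cell cannot be told apart. *Fat-1* sample 1 had the highest luminal sum and the lowest fibroblast sum of the 6.

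Promoter sequences are printed for 4 of the genes whose levels moved together across samples, 2 of them following the epithelial and 2 the leukocyte markers, *Itgam* only loosely. *Lama5* and *Itga3* encode the laminin α5 chain and an integrin α subunit that binds it, and *Itga4* and *Itgam* encode α subunits of leukocyte integrins. Each run is the 250 bases before the RefSeq start of the gene on GRCm38.p6, read 5′ to 3′ on the strand of the gene. The windows are chr2:180225860-180226109 (minus strand) for *Lama5*, chr11:95076715-95076964 (minus) for *Itga3*, which has 2 RefSeq windows, chr2:79255176-79255425 (plus) for *Itga4* and chr7:128062390-128062639 (plus) for *Itgam*. Capitals mark matches, on either strand, to GAGGAA (the core read by PU.1 and other ETS factors), to TGANTCA (AP-1), to GCCNNNGGC (AP-2) or to GGGCGG (the GC box).

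Lama5: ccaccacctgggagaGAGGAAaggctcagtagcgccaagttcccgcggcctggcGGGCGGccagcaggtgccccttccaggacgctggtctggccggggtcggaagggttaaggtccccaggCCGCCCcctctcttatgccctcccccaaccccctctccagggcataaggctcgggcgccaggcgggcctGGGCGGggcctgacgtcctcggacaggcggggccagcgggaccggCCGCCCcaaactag

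Itga3: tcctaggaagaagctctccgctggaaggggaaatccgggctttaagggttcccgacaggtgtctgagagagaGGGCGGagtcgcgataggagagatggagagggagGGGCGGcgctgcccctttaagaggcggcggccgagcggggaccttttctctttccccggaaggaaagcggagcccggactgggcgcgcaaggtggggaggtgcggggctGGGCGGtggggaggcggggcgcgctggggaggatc

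Itga4: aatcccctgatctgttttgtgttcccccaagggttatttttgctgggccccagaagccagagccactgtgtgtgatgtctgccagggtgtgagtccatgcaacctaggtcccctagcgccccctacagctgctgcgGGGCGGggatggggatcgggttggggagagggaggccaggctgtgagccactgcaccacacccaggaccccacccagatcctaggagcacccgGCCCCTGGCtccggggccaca

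Itgam: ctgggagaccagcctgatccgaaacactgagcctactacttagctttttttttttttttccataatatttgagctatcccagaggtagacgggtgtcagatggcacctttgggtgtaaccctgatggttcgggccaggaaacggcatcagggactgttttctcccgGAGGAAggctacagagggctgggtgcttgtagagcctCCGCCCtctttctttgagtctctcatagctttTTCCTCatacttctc

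The *Lama5* window was 72.4% G and C, with 4 GC boxes and 1 GAGGAA core, and the printed *Itga3* window was 67.6% G and C, with 3 GC boxes. The other *Itga3* window, which is not printed, was 50.8% G and C, with 1 GAGGAA core and 1 GC box. That of *Itgam*, at 49.6% G and C, held 2 GAGGAA cores and 1 GC box, and that of *Itga4*, at 64% G and C, held 1 GC box and 1 AP-2 match but no GAGGAA core. RefSeq windows were at hand for 23 of the 36 genes, 26 windows in all. GAGGAA was in 13 of the 26, TGANTCA in 1, GCCNNNGGC in 4 and GGGCGG in 9, while 23.3%, 6.75%, 13.7% and 32.7% of 32851 mouse windows of this length held them. A match describes the letters of a window and is not evidence of binding.

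Per kilobase of annotated exon, the integrin β1 gene *Itgb1* stood far above the other members. *Itgb1*, whose product pairs with most α subunits, averaged 160 CPM per kilobase, with a range over the 6 samples of 145 to 178. It was followed by *Lamc1*, the γ chain of most laminins, at 56.6 (40.6 to 68.7) and *Lamb2*, a laminin β chain, at 52.1 (44.0 to 59.9), which overlap each other, and then by *Itgb3* at 36.2 (21.6 to 41.3), *Itgav* at 28.2 (23.2 to 43.4), *Itga5* at 27.7 (16.8 to 36.5) and *Lama5* at 20.9 (9.98 to 42.4), which overlap too. The value of *Lamb2* includes an unnamed row of a locus shared with *Usp19*, and its symbol row alone gave 14.8 (0.850 to 24.2). *Itga5* and *Itgav*, α subunits of fibronectin or vitronectin receptors, averaged above the α subunits that bind laminin or collagen. This did not hold for the other members of their ligand class. *Itga2b* and *Itga8* averaged 1.60 and 1.51, below *Itga3*, *Itga2* and *Itga6*.

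Among the laminin-binding α subunits the order was *Itga3* (11.2 CPM per kilobase), *Itga6* (9.31) and *Itga7* (2.32), the first pair of which overlapped across samples. Of the collagen-binding α subunits, *Itga2* was highest at 9.88 and *Itga11* lowest at 0.811. The leukocyte α subunits were led by *Itgal*, the α chain of LFA-1, at 8.79, and ended with *Itgad* at 0.0158, which had 0 to 23 counts a sample. The laminin α chains ran from *Lama5* at 20.9 through *Lama2* at 7.80, *Lama4* at 7.04 and *Lama3* at 3.99 to *Lama1*, the α chain of early embryonic basement membrane, at 0.249. *Lamb1* and *Lamb3* averaged 9.74 and 5.95, and *Lamc3* 1.84. *Itgam*, *Itgax* and *Itgad* are similar neighbouring genes on chromosome 7, so that reads may have been divided between them.

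**Figure D1:**
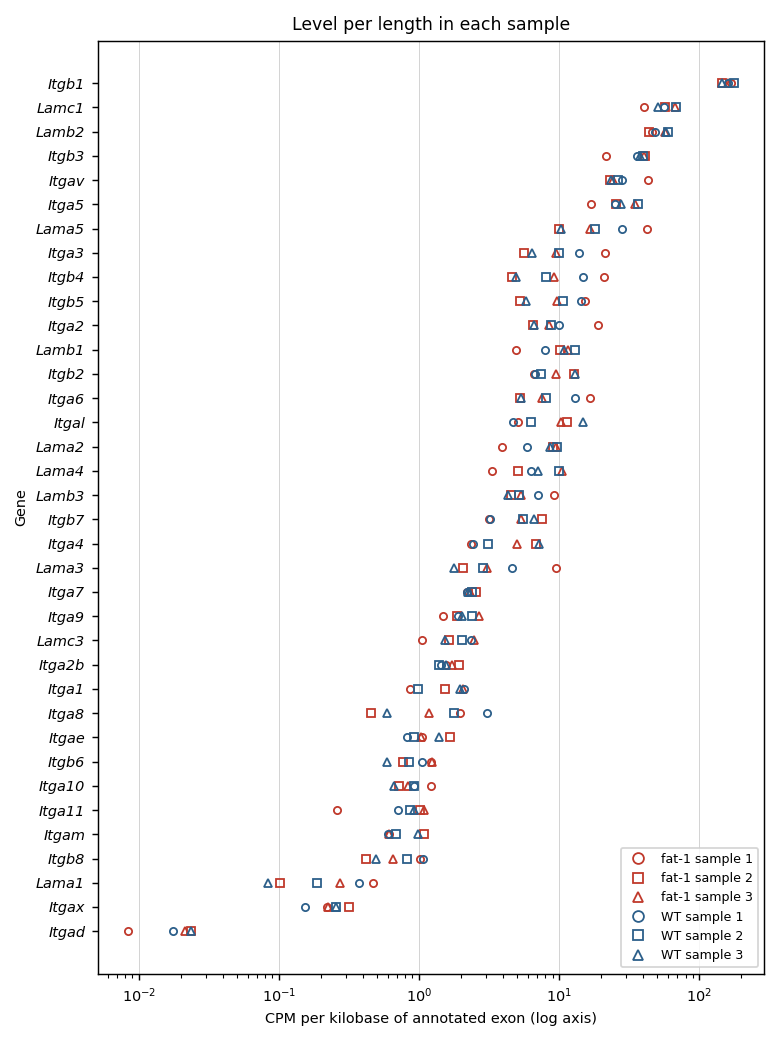
Level of each of the 36 genes in CPM per kilobase of annotated exon, on a log axis, with 1 point for each sample (red, *fat-1*; blue, WT; the shape gives the sample number). *Itgb1* lies above all others in every sample, and the sample of *Itgad* with 0 counts, WT sample 2, cannot be drawn.

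No member passed the test of a difference between *fat-1* and WT mice. Of the 36 genes 0 passed the adjusted threshold of 0.05 in the quasi-likelihood test of edgeR, which called 0.0% of the 24061 loci tested, and 0 had an unadjusted p of 0.05 or less, against 1.14% of all loci. The exact test of edgeR and DESeq2 also called 0 members at the adjusted threshold and 0 at the unadjusted threshold in locus sums. The log2 fold change was positive for 21 members and negative for 15, with a median of 0.05 beside 0.0020 over all loci. The 2 genotypes overlapped for every member, while 4.15% of all loci had genotypes that did not overlap.

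How far these data limit a difference varied with the gene. For 19 members the 95% interval of the fold change lay within 2-fold in either direction, 3 of them loci that also hold another coding gene. Among the others the narrowest were around *Itgb1* (log2 fold change −0.02, SE 0.10, interval −0.27 to 0.23), *Itga7* (0.05, SE 0.11, −0.21 to 0.30) and *Itga2b* (0.25, SE 0.13, −0.07 to 0.57), and the widest around *Itgad* (0.40, SE 0.85, −1.66 to 2.47), *Itga8* (−0.59, SE 0.70, −2.28 to 1.10) and *Lama1* (0.38, SE 0.69, −1.28 to 2.04). For the other 17, among them the epithelial laminin receptor genes, a 2-fold difference lies inside the interval. In counts simulated with the spread of all loci tested, the same test called 10% of 2-fold and 78% of 4-fold changes. The changed loci were drawn at random from all tested loci above a count limit, not from the members. The median SD of log2 CPM over the 6 samples was 0.483 for members and 0.300 over loci with a count in every sample. The called shares may therefore be too high for the members.

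The 3 smallest p-values among the members belonged to *Itga2b*, *Itgb6* and *Lama3*. *Itga2b* (chromosome 11, 102453297 to 102470122, minus strand) encodes the αIIb subunit of the platelet fibrinogen receptor. It stood at 8.47, 10.6 and 9.37 CPM in *fat-1* samples 1, 2 and 3 and at 7.80, 7.59 and 8.49 CPM in WT samples 1, 2 and 3, or 9.48 ± 1.07 against 7.96 ± 0.469 (SD). *Fat-1* sample 1 lay just below WT sample 3, so the genotypes overlapped narrowly. The log2 fold change was 0.25 (SE 0.13, interval −0.07 to 0.57, unadjusted p = 0.104, adjusted p = 1.00 by edgeR), and 58.0% of the variance of its log2 level lay between genotypes, the most of any member. Platelet markers were low, with 3 genes summing to 3.20 to 3.51 CPM in *fat-1* and 3.47 to 4.50 CPM in WT, and of 4 tested genes 2 had a positive and 2 a negative log2 fold change. *Pf4*, platelet factor 4, stood at 1.84 ± 0.585 against 2.85 ± 0.744 CPM and the von Willebrand receptor gene *Gp1ba* at 1.41 ± 0.600 against 1.13 ± 0.216 CPM, and their part in the level of *Itga2b* was not tested.

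*Itgb6*, the epithelial β subunit that pairs with αv and activates latent TGF-β, had 8.62, 5.52 and 8.81 CPM in *fat-1* and 7.50, 6.03 and 4.21 CPM in WT. *Fat-1* sample 2 lay below 2 of the WT samples. The log2 fold change was 0.37 (SE 0.28, interval −0.30 to 1.04, unadjusted p = 0.226). *Lama3*, the laminin α3 chain of epithelial anchoring complexes, had 102, 22.0 and 32.7 CPM in *fat-1* and 49.9, 30.8 and 19.1 CPM in WT. Only *fat-1* sample 1 stood above all WT samples, and its log2 fold change of 0.66 (SE 0.63, interval −0.87 to 2.18, unadjusted p = 0.337) became −0.27 without that sample.

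**Figure D2:**
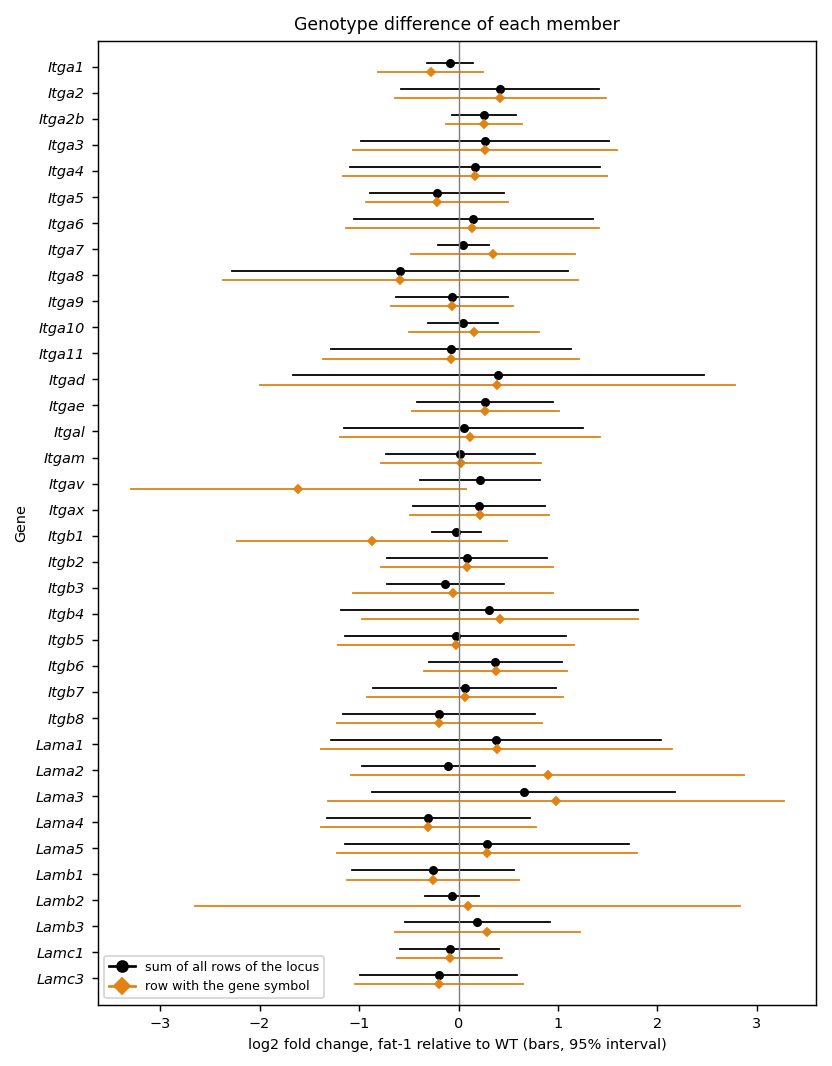
Log2 fold change of each member, *fat-1* relative to WT, with its 95% interval, for the locus sum (black circles) and for the row with the gene symbol (orange diamonds). Every interval includes 0, and the symbol rows of *Itgav* and *Itgb1* lie apart from their locus sums.

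The levels varied between samples of the same genotype far more than between genotypes. The median over 35 members of the highest over the lowest sample was 2.35-fold (1.15 to 6.68), beside 1.72-fold over all loci tested with a count in every sample and 1.42-fold over those averaging 1 CPM or more. The difference was 2-fold or more for 23 members, 3-fold or more for 11 and 4-fold or more for 6. The share of the variance that lay between genotypes had a median of 4.97%, beside 5.46% over all loci. *Fat-1* sample 1 was the highest sample for 11 members and the lowest for 13, whereas *fat-1* sample 3 was the lowest for 0.

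To see which members varied together, each was divided, sample by sample, by an epithelial gene (*Epcam*, an epithelial adhesion molecule), a leukocyte gene (*Ptprc*, which encodes CD45) and a fibroblast gene (*Dcn*, decorin). These 3 genes and the grouping were chosen after the values had been seen, and the ratios are descriptions without a test. The spread over the 6 samples was narrowest relative to *Epcam* for 11 members, relative to *Dcn* for 9, relative to *Ptprc* for 6 and in plain CPM for 9.

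**Figure D3:**
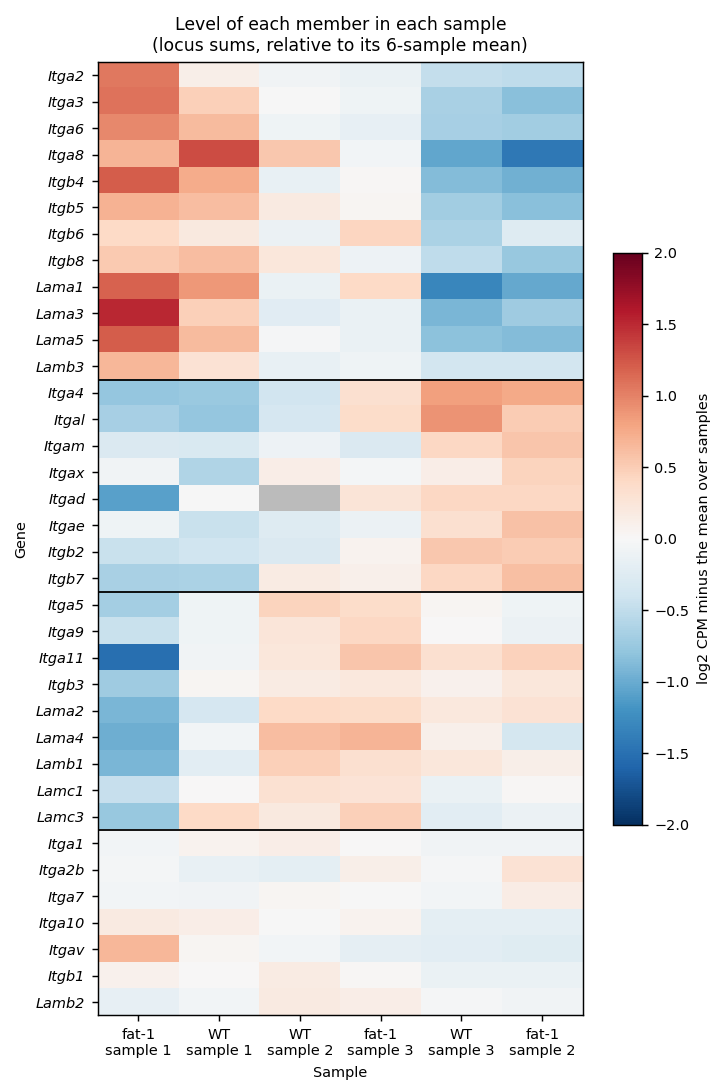
Log2 CPM of each member in each sample minus the mean over samples, with samples in order of their summed luminal markers from left to right and genes in 4 blocks drawn after the values were seen. The upper block falls from left to right, the second rises, the third is lowest in *fat-1* sample 1 and the last is nearly level apart from *Itgav* in that sample, and *fat-1* and WT samples are interleaved in this order. The grey cell is *Itgad* in WT sample 2, with 0 counts.

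Several laminin receptor and laminin genes, *Itga3*, *Itga6*, *Itgb4*, *Lama1*, *Lama3* and *Lama5*, followed the epithelial markers. *Lamb3* did so only loosely, with a 1.99-fold range relative to *Epcam* and a 2.05-fold range in CPM. The laminin receptor chains *Itga7* and *Itgb1* ranged 4.61-fold and 3.45-fold relative to *Epcam* and less in CPM. *Lama5* (chromosome 2, 180176373 to 180225859, minus strand), whose product is the main α chain of adult epithelial basement membranes, had 484, 114 and 189 CPM in *fat-1* and 323, 206 and 118 CPM in WT. *Fat-1* sample 1 and WT sample 1 were the highest, and *fat-1* sample 2 and WT sample 3 the lowest, which is the order of *Epcam* at 787, 197 and 339 against 614, 356 and 199 CPM. Relative to *Epcam*, *Lama5* ran from 0.526 to 0.614, a 1.17-fold range in place of 4.24-fold.

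*Itgb4* (chromosome 11, 115974709 to 116008412, plus strand), the β4 chain of hemidesmosomes, had 146, 32.4 and 64.2 CPM in *fat-1* and 105, 56.6 and 34.4 CPM in WT. Its partner *Itga6* (chromosome 2, 71745616 to 71858416, plus strand), a surface marker used to sort mammary basal cells, had 149, 47.4 and 68.5 against 118, 72.4 and 48.3 CPM. Both had the same 2 high and 2 low samples as *Lama5*, and their ratios to *Epcam* ranged 1.19-fold and 1.28-fold. Per exon length, *Itga6* stood at 0.920 ± 0.190 of *Itgb4* in *fat-1* and at 0.987 ± 0.108 in WT, with overlapping samples.

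*Itga3*, the α3 laminin receptor chain, had 122, 32.3 and 54.3 CPM in *fat-1* and 80.0, 57.1 and 36.9 CPM in WT, a 3.78-fold range that became 1.42-fold relative to *Epcam*. *Itga2*, the α2 collagen receptor chain, had 135, 46.3 and 60.1 against 71.3, 62.7 and 47.2 CPM. For *Itga2* and for *Lama3* *fat-1* sample 1 stood further above WT sample 1 than it did for *Lama5*, and *Lama3* per length relative to *Lamb3*, which encodes a chain of the same trimer, was 1.03, 0.451 and 0.571 in *fat-1* and 0.656, 0.556 and 0.411 in WT. *Itgb5*, *Itgb8*, *Itga8*, *Lama1* and *Lamb3* were also narrowest relative to *Epcam*, with ranges of 1.54-fold to 2.17-fold.

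*Itga8*, the nephronectin receptor chain, had its highest level in a WT sample, as did *Itgb8*. *Itga8* had 14.6, 3.36 and 8.68 CPM in *fat-1* and 22.4, 13.2 and 4.39 CPM in WT, the widest range of any member with a count in every sample (6.68-fold). Relative to *Epcam* it was 0.0185, 0.0171 and 0.0256 in *fat-1* and 0.0365, 0.0371 and 0.0221 in WT. *Fat-1* sample 3 lay above WT sample 3, so the genotypes overlapped in this ratio too. With the average log2 CPM of basal and luminal markers as a covariate, a fit added after the data were seen, 3 members had an unadjusted p of 0.05 or less, beside 2.18% of all loci, and 0 passed the adjusted threshold by edgeR. They were *Itga8* (log2 fold change −0.41), *Itgb6* (0.43) and *Lama1* (0.52). In symbol rows the same fit gave these genes and *Itgav*, beside 3.24% of all rows. Nerve sheath markers had an order like that of *Itga8*, with 3 genes summing to 39.7, 15.8 and 31.9 CPM in *fat-1* and 51.3, 38.9 and 16.0 CPM in WT, and their part in the level of *Itga8* was not tested.

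Leukocyte integrin genes ran the other way. *Itgal* (chromosome 7, 127296260 to 127335138, plus strand) had 33.4, 75.1 and 68.1 CPM in *fat-1* and 30.7, 41.6 and 97.8 CPM in WT, and its β partner *Itgb2* had 20.2, 39.1 and 28.9 against 20.7, 22.6 and 39.9 CPM. The samples with the most epithelial RNA, *fat-1* sample 1 and WT sample 1, had the least of both. *Ptprc* stood at 166, 407 and 274 CPM in *fat-1* and at 157, 201 and 398 CPM in WT, and relative to it *Itgal* ranged 1.35-fold and *Itgb2* 1.38-fold. Per length *Itgal* was 0.917 ± 0.165 of *Itgb2* in *fat-1* and 0.894 ± 0.228 in WT, while the myeloid α chain *Itgam* was 0.0804 ± 0.0143 and 0.0858 ± 0.00911 of it. *Itgam* had 3.05, 5.50 and 3.06 CPM in *fat-1* and 3.01, 3.47 and 4.98 CPM in WT. It followed *Ptprc* only loosely, with a 1.72-fold range relative to it and a 1.83-fold range in CPM.

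*Itga4*, the α4 chain that binds VCAM-1 and MAdCAM-1, had 33.1, 95.3 and 70.3 CPM in *fat-1* and 33.8, 43.3 and 100.0 CPM in WT, and ranged 1.28-fold relative to *Ptprc*. *Itgb7*, the β chain of gut-homing lymphocyte integrins, had 8.75, 20.9 and 14.9 against 8.93, 15.4 and 18.3 CPM. *Itgae*, the αE chain of intraepithelial lymphocytes that binds E-cadherin, had 4.83, 7.68 and 4.74 against 3.76, 4.25 and 6.35 CPM. All 3 were highest in *fat-1* sample 2 or WT sample 3, the samples with the most *Ptprc*. T cell markers summed to 62.5 to 129 CPM in *fat-1* and 55.1 to 130 CPM in WT over 4 genes, B cell markers to 156 to 421 and 172 to 461 CPM over 2 of 4, and myeloid markers to 34.3 to 54.0 and 39.0 to 60.5 CPM over 3 of 4.

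**Figure D4:**
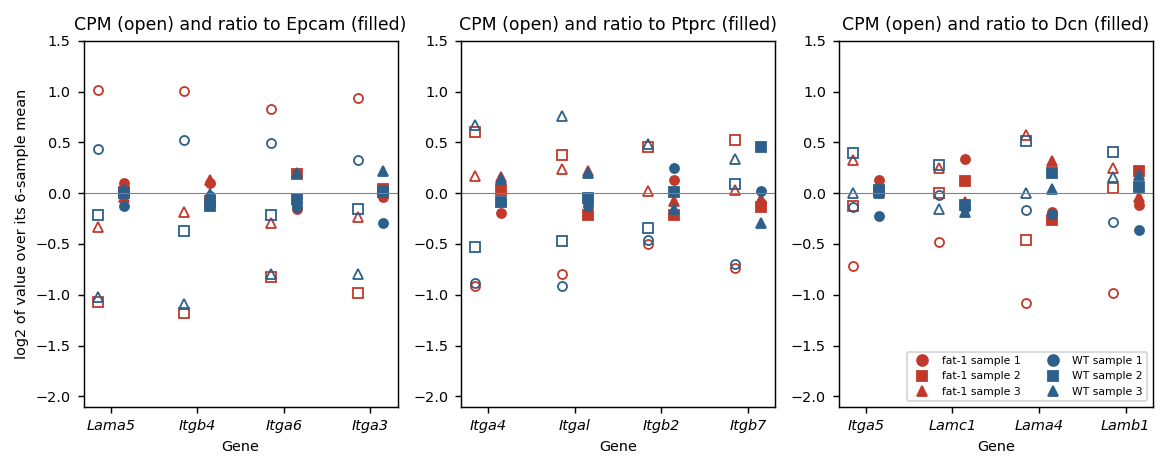
For 4 genes of each set, log2 CPM (open symbols) and log2 of the ratio to *Epcam*, *Ptprc* or *Dcn* (filled symbols), each relative to its mean over the 6 samples; red, *fat-1*; blue, WT. The 12 genes were taken from the members narrowest relative to that reference gene, so the filled symbols lie closer together than the open ones by choice. The filled symbols lie most closely for *Lama5* and *Itgb4*.

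The laminin chains *Lama2*, *Lama4*, *Lamb1*, *Lamc1* and *Lamc3* and the integrins *Itga5*, *Itga9*, *Itga11* and *Itgb3* were narrowest relative to *Dcn* and lowest in *fat-1* sample 1. *Lama4*, the α4 chain of vascular and stromal basement membranes, had 40.2, 61.9 and 126 CPM in *fat-1* and 75.8, 121 and 84.8 CPM in WT. *Lamb1* had 48.8, 100.2 and 115 against 79.4, 128 and 108 CPM, and *Lama2*, the α2 chain of mesenchymal and muscle basement membranes, 64.2, 149 and 156 against 96.2, 159 and 141 CPM. *Fat-1* sample 3 and WT sample 2, which had the highest fibroblast sums, were the upper 2 samples for all 3 genes. *Itga5*, the fibronectin receptor chain, had 83.0, 126 and 171 against 124, 180 and 137 CPM and followed *Dcn* most closely, within 1.28-fold.

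*Lamc1*, *Lamc3*, *Itgb3* and *Itga9* also had their narrowest range relative to *Dcn* (1.43-fold to 1.51-fold), and *Itga11*, a fibroblast collagen receptor chain, a wider one of 2.43-fold. Set against an epithelial chain, *Lama4* showed the largest swing of the 14 subunit ratios but for none did the genotypes separate. *Lama5* per length was 12.7, 1.94 and 1.59 times *Lama4* in *fat-1* and 4.50, 1.80 and 1.47 times in WT, an 8.64-fold range that fell to 3.06-fold without *fat-1* sample 1. The ratio was highest in sample 1 of each genotype. *Lama4* is also known from endothelium. The 6 endothelial markers summed to 214 to 238 CPM in *fat-1* and 227 to 266 CPM in WT. Single markers ranged from 1.38-fold (*Cdh5*) to 2.85-fold (*Vwf*), and their part in the level of *Lama4* was not tested.

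Of the 9 members whose spread was narrowest in plain CPM, *Itgax* and *Itgb6* ranged 2.08-fold and 2.09-fold, and most others were nearly level. *Itgb1* had 688, 593 and 659 CPM in *fat-1* and 655, 726 and 590 CPM in WT, a 1.23-fold range, and *Itga7*, *Itga1*, *Lamb2* and *Itga2b* ranged 1.15-fold to 1.40-fold. *Itgav*, whose product pairs with several β chains, had 466, 249 and 261 CPM in *fat-1* and 302, 284 and 254 CPM in WT, with *fat-1* sample 1 alone high. Its log2 fold change was 0.22 (SE 0.25) with all samples and −0.13 without *fat-1* sample 1. The locus sums of *Itga1* and *Lamb2* also hold reads of *Pelo* and *Usp19*, so that the small range of these sums is in part that of another gene. Without the rows of other named genes *Itga1* ranged 2.44-fold, and its symbol row gave a log2 fold change of −0.28 (SE 0.22, interval −0.81 to 0.25). The 3 skeletal muscle markers summed to 0.564 to 1.03 CPM. The part of muscle in the levels of *Itga7* and *Lama2*, genes known from muscle, was not tested.

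For a few members the row with the gene symbol and the locus sum gave different values. The assembly gave 21 members a row of their own and split or shared the locus of 15, and 12 of these had a further row without a symbol. *Itgb1* (chromosome 8, 128685654 to 128733200, plus strand) held 27.6%, 26.5% and 98.6% of its locus in the symbol row in *fat-1* and 98.5%, 82.1% and 98.6% in WT. Its symbol row therefore stood at 191, 157 and 648 CPM in *fat-1* and at 644, 597 and 581 CPM in WT. The locus sum was level while the row of 2 *fat-1* samples was low, and the row gave a log2 fold change of −0.87 (SE 0.55, unadjusted p = 0.166), which became −1.80 without *fat-1* sample 3 (adjusted p = 0.196 by edgeR), −0.53 without *fat-1* sample 2 and −0.59 without *fat-1* sample 1.

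*Itgav* (chromosome 2, 83724397 to 83806916, plus strand) was the only member whose share did not overlap between genotypes. The symbol row held 4.32%, 34.2% and 5.71% of the locus in *fat-1* and 35.2%, 49.3% and 48.0% in WT. Among 7361 rows with a symbol in loci of several rows, 7.93% had shares that did not overlap. The row stood at 20.2, 85.4 and 14.8 CPM in *fat-1* and at 106, 140.4 and 122 CPM in WT, with a log2 fold change of −1.61 (SE 0.69, interval −3.30 to 0.07, unadjusted p = 0.0579, adjusted p = 1.00 by edgeR). Without *fat-1* sample 2 the value was −2.81 (adjusted p = 0.281 by edgeR), without *fat-1* sample 1 it was −1.28 and without *fat-1* sample 3 it was −1.22. The *fat-1* samples thus lay below WT as rows but not as locus sums, and the counts missing from the row were in the unnamed row of the same locus.

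Of the symbol rows, 0 members passed the adjusted threshold and 0 the unadjusted one, at which edgeR called 0.0% and 2.21% of 30683 rows, and the exact test of edgeR and DESeq2 each placed 1 member, *Itgav*, under the unadjusted threshold and 0 under the adjusted one. The rows of 2 members, *Itga2b* and *Itgav*, did not overlap between genotypes, beside 5.26% of all rows. *Itga2b* has 1 row, so its counts are the same in both readings, and only the separate scaling of the 2 tables differs. *Fat-1* sample 1 and WT sample 3 stood at 8.51 and 8.47 CPM as rows, and at 8.47 and 8.49 CPM as locus sums. In simulated counts with the spread of all rows tested, the test called 0% of 2-fold and of 4-fold changes. A count of 0 therefore says little about differences of that size. *Itgb4*, *Itga7*, *Lama3*, *Lamb2* and *Itgal* also had shares that differed by more than 20 points between samples, without separating the genotypes. The symbol row of *Lama2* held under 1% of its locus in every sample, so that by its row the gene would have been placed at 0.0249 CPM per kilobase in place of 7.80. For *Lamb2*, *Itgb3* and *Itgav* the rows gave 14.8, 8.22 and 7.58 in place of 52.1, 36.2 and 28.2. Whether the unnamed row beside *Lamb2* belongs to it or to *Usp19* was not tested.

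**Figure D5:**
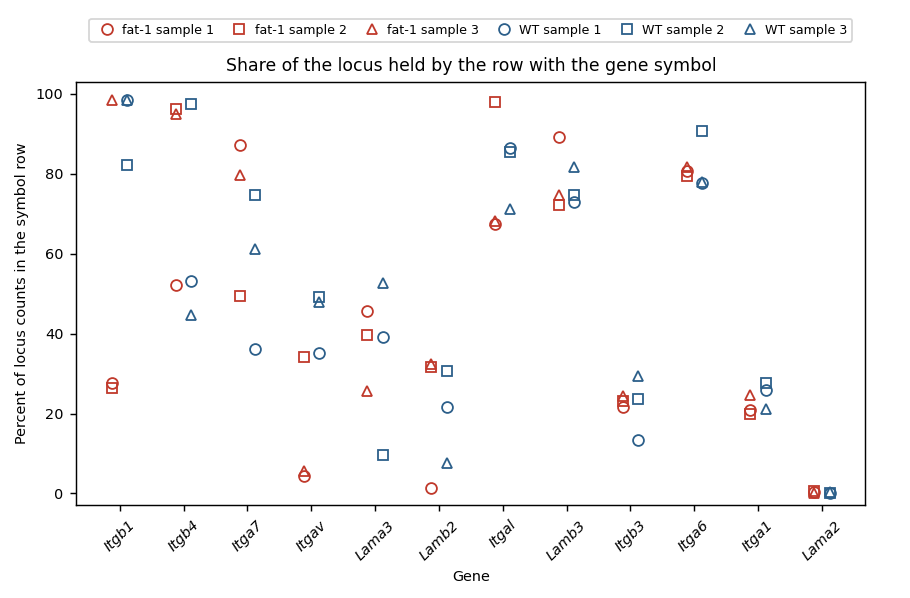
Percent of the locus counts held by the row with the gene symbol, in each sample, for 12 members with an unnamed row; red, *fat-1*; blue, WT; the shape gives the sample number. *Itgav* is the gene whose *fat-1* samples all lie below the WT samples, and 2 *fat-1* samples of *Itgb1* lie near 27% with the other samples above 80%.

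Genes that work with integrins and laminins were tested in the same way, from lists drawn up by function. Of 65 listed partner genes 0 passed the adjusted threshold and 1 the unadjusted one, beside 1.14% of all loci, and the median log2 fold change was −0.02. The 1 gene was *Spp1*, which encodes the integrin ligand osteopontin, at 6.07, 3.93 and 4.72 CPM in *fat-1* and 6.92, 6.82 and 6.69 CPM in WT (log2 fold change −0.47, SE 0.18, unadjusted p = 0.0395, adjusted p = 1.00 by edgeR). All *fat-1* samples lay below all WT samples, as in 2.36% of loci. In the same list *Edil3*, an RGD ligand of αv integrins, had a log2 fold change of −0.39 (SE 0.25), and 4 of 14 ligands had a positive and 10 a negative value.

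Of the 26 activators and adaptors, 16 had a positive and 10 a negative log2 fold change (median 0.01), and the smallest p-values were those of *Tns1*, a tensin (−0.25, SE 0.14), and *Parvb*, β-parvin (−0.27, SE 0.16). Among the 8 hemidesmosome and tetraspanin genes 7 were positive (median 0.08), with *Cd81* (−0.20, SE 0.13) and *Cd82* (0.25, SE 0.23) first by p. Of 17 other basement membrane and laminin receptor genes 15 were negative, with a median of −0.10 beside 0.0020 over all loci. First by p were *Npnt*, nephronectin, the ligand of the α8 integrin (−0.37, SE 0.23), and *Sdc1*, syndecan 1 (−0.24, SE 0.34). All 7 fibroblast markers were negative too (median −0.24), and the part of fibroblast RNA in these values was not tested.

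The kindlins, cofactors of talin in integrin activation, divided like the integrins themselves, and were singled out after their values had been seen. The epithelial *Fermt1* had 85.5, 13.4 and 26.1 CPM in *fat-1* and 39.2, 29.6 and 12.9 CPM in WT, and the hematopoietic *Fermt3* had 36.0, 73.8 and 59.5 against 34.1, 41.9 and 84.1 CPM. The widely expressed *Fermt2* ranged 1.44-fold and talin, *Tln1*, 1.22-fold. Relative to the WT samples neither *Fermt1* (log2 fold change 0.61, SE 0.72) nor *Fermt3* (0.08, SE 0.41) passed the test.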

How the data were processed

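RNA from 3 *fat-1* and 3 WT pooled samples was analysed, grouped by the genotype label. Per the paper's methods and the submitters' processing notes, the authors mapped reads to GRCm38 with HISAT2 and assembled and quantified transcripts with StringTie. The deposited values are estimated counts, as whole numbers without normalization, and no value column lacked a sample. The annotation, the StringTie version, the use of strand and the conversion of coverage to counts are not given in the sources used here, so counts of overlapping genes and of paralogs are uncertain. Nothing ties the samples to separate batches, and p-values measure the spread between these pools.

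Rows of 1 assembled locus were summed (53912 loci). In both tables edgeR 4.0.16 (under R 4.3.3) supplied the main quasi-likelihood fit, after filterByExpr and TMM, with a single genotype term, Benjamini–Hochberg adjustment over all features and a threshold of 0.05, with 95% intervals. CPM are TMM-scaled. Exon lengths and positions are from GENCODE for GRCm38, matched by symbol. With rows of another named gene in a locus, levels per length and subunit ratios used the rows of the gene itself and those without a name. No permutation test was run, since the smallest exact two-sided p for 3 against 3 is 0.1. At 204539059 to 232148824 counts a sample, the number of samples rather than depth limits the precision, except for *Itgad*, where a count of 0 allows up to 3 counts. Floors cover counting error only. Alternatives were other filters, scalings and fits, DESeq2 1.42.0, a replicate block, leaving out each sample, and a covariate for epithelial markers. The tests were tried on simulated counts with 100 features changed 2-fold and 100 changed 4-fold, drawn from all tested features above a count limit.

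The members and lists were chosen with earlier results of these data known. Differences are given one by one for the 3 members with the smallest p in each table and for any whose row share separated the genotypes, and at most 2 partner genes a list, by p. The kindlins and the reference genes *Epcam*, *Ptprc* and *Dcn* were picked after their values were seen.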

Additional observations from a re-analysis of the deposited data

How the results depend on the processing

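Of the 36 members, 0 passed the adjusted threshold under each of the 15 alternatives for locus sums and the 14 for symbol rows, and in locus sums 0 had an unadjusted p of 0.05 or less under 13 of the 15. Leaving out 1 sample at a time gave 0 to 1 (*Lama4*, log2 fold change −0.88, without *fat-1* sample 3). The epithelial marker mean as a covariate, added after seeing the data, gave 3. In symbol rows the edgeR exact test, DESeq2 and the replicate block each gave 1, *Itgav*, leaving out a sample gave 0 to 2, and the covariate gave 4. Without *fat-1* sample 2 the row of *Itgav* was at −2.81 (adjusted p = 0.281 by edgeR), and without *fat-1* sample 3 that of *Itgb1* was at −1.80 (adjusted p = 0.196). Over all samples left out in turn these rows ran from −2.81 to −1.22 and from −1.80 to −0.53. The cause of these changes was not tested. Without *fat-1* sample 1 the locus log2 fold change of *Lama3* turned to −0.27 and that of *Itgav* to −0.13, and over the samples left out they reached 1.07 and 0.37. Over the samples left out, the median of the members ran from −0.01 to 0.06 in locus sums and from −0.05 to 0.13 in rows.

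Over all features, the exact test and DESeq2 called 6 and 8 loci and 32 and 93 rows at the adjusted threshold, beside 0 of each by the quasi-likelihood test, and leaving out a sample 0 to 1 loci and 0 to 2 rows. At the unadjusted threshold 579 loci and 1136 rows were called with any count admitted, 525 loci with the covariate, and 204 to 542 loci and 635 to 986 rows with a sample left out. Of the partner genes the exact test called 0 and leaving out a sample 0 to 2 at the unadjusted threshold.

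Deviations from the genotype means correlated at 0.515, −0.096 and 0.074 for same-numbered samples, and at 0.477 for *fat-1* sample 2 with WT sample 3. As the samples also differed in cell content, these values cannot show whether same-numbered samples were prepared together. With the replicate block 376 loci and 784 rows were at the unadjusted threshold.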
